A study of Mus musculus with 14 samples.

Results

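The Trem2 lipid-associated macrophage genes were examined in RNA-seq of cells sorted from mouse lungs. The set held 6 genes, taken by symbol from a table of 43432 Ensembl genes: Trem2, Tyrobp, Cd9, Cd63, Gpnmb and Lgals3. All 6 were found and passed the filter on low values, which kept 17390 genes. The cells were SiglecF-positive and CD11c-positive, the surface phenotype of alveolar macrophages, and were split by the level of MHC class II (MHCII) at the surface. All mice were male, of strain 129S1 and 10 to 12 weeks old. Bleomycin, a DNA-damaging drug that injures the lung and leads to fibrosis, was given into the trachea at 3 U/k, as the labels write the dose, and control mice received water. The 5 groups were MHCII-low cells of controls (2 libraries, labelled replicates 1 and 3), MHCII-low cells 2 weeks and 4 weeks after bleomycin (3 libraries each) and MHCII-high cells at the same times (3 libraries each). Control cells with high MHCII are not analysed here, so MHCII-high cells could be set against MHCII-low controls only, where the treatment and the MHCII level both differ and cannot be told apart. The labels do not say whether a library came from 1 mouse or from pooled mice, so p-values measure the spread between these libraries.

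TREM2 is a surface receptor of macrophages that binds lipids and lipoproteins. It has no signalling tail of its own and signals through the adaptor TYROBP (DAP12), which recruits the kinase SYK. In lipid-loaded macrophages of fat, atherosclerotic plaques and injured tissue, Trem2 is found together with genes of lipid handling, lysosomes and secretion, among them Gpnmb, Cd9, Cd63 and Lgals3. GPNMB is a glycoprotein of lysosomes and the cell surface, CD9 and CD63 are tetraspanins that organise membrane proteins (CD63 mainly in late endosomes, lysosomes and exosomes), and LGALS3 (galectin-3) is a sugar-binding lectin that alveolar macrophages make in quantity.

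Recovered depth ranged from 15106415 to 88059630 reads per library, and the mitochondrial ribosomal RNAs took 3.12% to 28.99% of them. That share was 21.7% and 24.1% in controls, 3.42% to 18.3% in 2-week and 3.12% to 23.1% in 4-week MHCII-low libraries, and 22.5% to 26.2% in 2-week and 8.12% to 28.99% in 4-week MHCII-high libraries. The sort markers were read in the libraries labelled for them. H2-Aa, an MHCII chain, read 127.8 to 136.9 normalized counts in controls, 503.2 to 1810.4 in 2-week and 381.4 to 778.3 in 4-week MHCII-low libraries. In MHCII-high libraries it read 16282.6 to 38503.3. Siglecf read 3056.4 or more in all libraries. At 2 weeks it was lower in MHCII-high than in MHCII-low cells (log2 fold change -0.95, limma adjusted p 0.000864). The same held at 4 weeks (-1.02, adjusted p 0.000389). Markers of other cells were present too. The summed alveolar and airway epithelial list (8 genes) was 10337.1 to 20012.5 normalized counts in controls, 4052.5 to 11784.6 in 2-week and 20964 to 28561.1 in 4-week MHCII-low libraries, and 5359.6 to 16645.8 in MHCII-high libraries. Scgb1a1, the airway club cell secretoglobin and named after its values were seen, averaged 13790.8 in controls and 21672.9 in 4-week MHCII-low cells, above the 6747.2 and 8303.9 of Siglecf. The summed dendritic cell list (8 genes) was 899.4 to 2120 normalized counts in MHCII-high and 88.4 to 270.7 in MHCII-low libraries, and Cd209a of that list was at 0 in every MHCII-low library after bleomycin. In a bulk library, fewer cells of a type and less RNA per cell cannot be told apart.

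The members lie on 5 chromosomes of the mouse genome build GRCm38. Trem2 (ENSMUSG00000023992) spans chromosome 17, 48346401 to 48354147, and Tyrobp (ENSMUSG00000030579) chromosome 7, 30413760 to 30417585, both on the forward strand. Cd63 (ENSMUSG00000025351) spans chromosome 10, 128908919 to 128912816, Gpnmb (ENSMUSG00000029816) chromosome 6, 49036546 to 49070929, and Lgals3 (ENSMUSG00000050335) chromosome 14, 47367751 to 47386160, all forward. Cd9 (ENSMUSG00000030342) lies on the reverse strand of chromosome 6, 125460266 to 125494791. The antisense gene Gm28809 overlaps 3316 bases of Cd9 and averaged 682 normalized counts. Strand use in the counting is not given in the sources used here, so reads of Cd9 and Gm28809 cannot be told apart where they overlap. The pseudogene Cd63-ps matches the Cd63 transcript at 98.5% over 812 bases. It averaged 11.4 normalized counts, against 472.9 or more for Cd63 in any library. How reads matching both were assigned is not given in the sources used here, so Cd63 levels carry that uncertainty.

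Promoter windows of 300 bases, from 250 before to 50 after the RefSeq start site, were matched for 5 of the 6 members (RefSeq, build GRCm38.p6). The windows of the 3 members whose level passed the test against control in more than 1 comparison are printed 5′ to 3′ on the gene's strand: Trem2 (chr17:48346151-48346450), Gpnmb (chr6:49036268-49036567) and Cd63 (chr10:128909095-128909394). Capitals mark matches to TGANTCA, the AP-1 motif with any middle base allowed, and to GAGGAA, the core of the PU.1 motif, on either strand.
Trem2: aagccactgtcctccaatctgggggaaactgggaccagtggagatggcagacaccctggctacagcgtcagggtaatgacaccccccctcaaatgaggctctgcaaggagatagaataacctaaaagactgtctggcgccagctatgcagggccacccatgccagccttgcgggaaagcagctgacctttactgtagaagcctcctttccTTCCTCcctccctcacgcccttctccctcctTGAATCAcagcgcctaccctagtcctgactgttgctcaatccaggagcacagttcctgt
Gpnmb: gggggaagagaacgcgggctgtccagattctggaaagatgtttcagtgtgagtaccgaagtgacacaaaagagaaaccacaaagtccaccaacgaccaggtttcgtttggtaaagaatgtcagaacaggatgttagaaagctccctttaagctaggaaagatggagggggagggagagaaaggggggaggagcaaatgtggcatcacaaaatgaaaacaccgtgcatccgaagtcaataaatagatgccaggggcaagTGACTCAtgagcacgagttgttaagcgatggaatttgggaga
Cd63: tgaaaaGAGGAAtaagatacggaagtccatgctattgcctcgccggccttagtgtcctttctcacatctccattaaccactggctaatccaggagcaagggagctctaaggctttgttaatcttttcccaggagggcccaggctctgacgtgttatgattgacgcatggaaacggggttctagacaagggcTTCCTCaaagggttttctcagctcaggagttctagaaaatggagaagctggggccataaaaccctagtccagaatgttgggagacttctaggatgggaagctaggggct
Trem2 held a match to TGANTCA, with A as the middle base, 9 bases and a PU.1 core 40 bases before the start. Gpnmb held a match to TGANTCA, with C as the middle base, starting at base 9 of the transcript. Cd63 held PU.1 cores 244 and 59 bases before the start. Among all 32851 windows of this length, 7.8% held TGANTCA and 28.3% held GAGGAA. Neither CACGTG (7.2% of windows) nor CATGTG (14.2%), the E-box and M-box letters bound by the MiT/TFE factors of lysosomal genes, was in the windows of Trem2, Gpnmb or Cd63. Of the other members, Cd9 held 1 match to CATGTG, on the reverse strand. The motifs did not overlap in the printed windows. These matches describe letters, not bound sites.

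Per kilobase of exon, Tyrobp was the most abundant member in controls and Cd63 and Trem2 the least. Tyrobp averaged 17803 normalized counts per kb, Gpnmb 11529, Cd9 6429, Lgals3 5287, Cd63 517 and Trem2 368 (means of 2 libraries). The order depended in places on the length used. Cd9 and Lgals3 did not separate per kb of deposited exon length (5960 and 6899 against 4348 and 6226). Per kb of GENCODE transcript they did (9920.7 and 11482.5 against 5692.6 and 8152.6), and Cd9 then overlapped Gpnmb (10921.5 and 12739.8). The order of Cd63 and Trem2 turned. The deposited exon length of Trem2 is 4946 bases, against 1088 for its principal GENCODE transcript, on which Trem2 read 1674 and Cd63 480 normalized counts per kb. In counts not divided by length, Gpnmb ranked 54 of 17390 genes in controls and 27 in 2-week MHCII-low cells, Cd63 6082 and 1907, and Trem2 3002 and 2118.

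**Figure D1:**
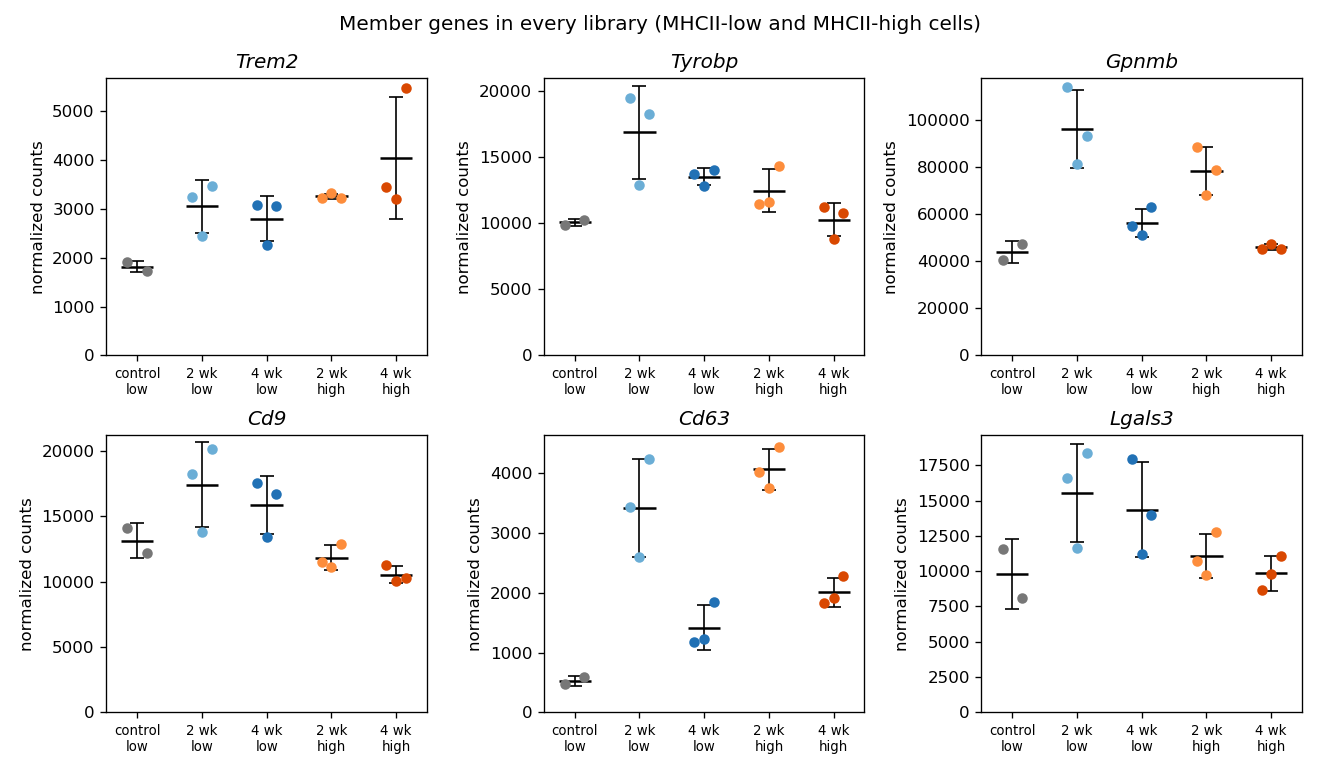
Normalized counts (vertical axes, starting at 0) of each member in the 5 groups; each point is 1 library, the wide bar the group mean and the error bars 1 SD. Cd63 and Gpnmb are highest at 2 weeks in both MHCII fractions, while Cd9, Tyrobp and Lgals3 have their highest group mean in 2-week MHCII-low cells.

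Trem2, the receptor, read 1906.4 and 1735.6 normalized counts in the controls. In MHCII-low cells it read 3246.5, 2444.3 and 3476 at 2 weeks and 3082.9, 2267.7 and 3063.1 at 4 weeks. MHCII-high cells gave 3232.8, 3317.7 and 3225.8 at 2 weeks and 3456.9, 3197.5 and 5485.6 at 4 weeks. Every bleomycin library lay above both controls. The bleomycin groups overlapped one another except 4-week MHCII-low against either MHCII-high group, and replicate 3 of the 4-week MHCII-high cells was by far the highest. Here and for the members below, such separations describe 2 or 3 libraries per group and are not tests. The share of all genes that separate in the same way is not given here.

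Tyrobp, the adaptor, followed another order. It read 9855.3 and 10226.7 in controls, 19405.2, 12855.2 and 18264.3 in 2-week and 13672.9, 12758 and 14012.6 in 4-week MHCII-low cells. MHCII-high cells gave 11411.2, 11611.1 and 14322.1 at 2 weeks and 11219.9, 8820.6 and 10725.3 at 4 weeks. The 4-week MHCII-high libraries thus overlapped the controls, and all MHCII-low bleomycin libraries lay above both.

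Of the tetraspanins, Cd63 varied most. It read 472.9 and 592.3 in controls, and 3443.4, 2594 and 4241.4 in 2-week and 1178.3, 1220.6 and 1855.1 in 4-week MHCII-low cells. In MHCII-high cells it read 4022.6, 3755.1 and 4437.8 at 2 weeks and 1825.2, 1922 and 2277.2 at 4 weeks. Controls lay below every bleomycin library, and within each MHCII fraction the 4-week libraries lay below the 2-week libraries. Cd9 read 14100.5 and 12182.6 in controls and 18230.5, 13817 and 20148.5 in 2-week MHCII-low, 17567.1, 13389.4 and 16683.3 in 4-week MHCII-low, 11507.9, 11138.4 and 12890.3 in 2-week MHCII-high and 11240.7, 10053.8 and 10304.2 in 4-week MHCII-high cells. At each time all MHCII-high libraries lay below all MHCII-low libraries.

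Gpnmb read 40420 and 47150 in controls. It read 113845, 81060 and 93319 in 2-week and 54939, 51225 and 62828 in 4-week MHCII-low cells, and 88587, 68195 and 78522 in 2-week and 45094, 47401 and 45191 in 4-week MHCII-high cells. The 2-week libraries of both fractions lay above all others, and the 4-week MHCII-high libraries overlapped the controls. Lgals3 read 11568.5 and 8077.8 in controls, 16563.6, 11646.6 and 18404.2 in 2-week and 17909.3, 11193.3 and 13945.4 in 4-week MHCII-low cells. MHCII-high cells gave 10703.7, 9702.4 and 12771.3 at 2 weeks and 8637.1, 9809.1 and 11089.2 at 4 weeks. Lgals3 libraries of the 2 MHCII fractions overlapped at 2 weeks and did not at 4 weeks.

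Ratios of 2 members within a library do not depend on the scaling between libraries. Cd63 over Cd9 was 0.0335 to 0.0486 in controls, 0.0671 to 0.111 in 4-week and 0.188 to 0.21 in 2-week MHCII-low cells, 0.162 to 0.221 in 4-week and 0.337 to 0.35 in 2-week MHCII-high cells. These ranges did not overlap, apart from those of 2-week MHCII-low and 4-week MHCII-high cells. Trem2 over Tyrobp was 0.17 to 0.193 in controls and 0.167 to 0.19 in 2-week MHCII-low cells, and these ranges overlapped. It was 0.178 to 0.225 in 4-week MHCII-low, 0.225 to 0.286 in 2-week MHCII-high and 0.308 to 0.511 in 4-week MHCII-high cells. The ratios are given as a description, with no test.

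**Figure D2:**
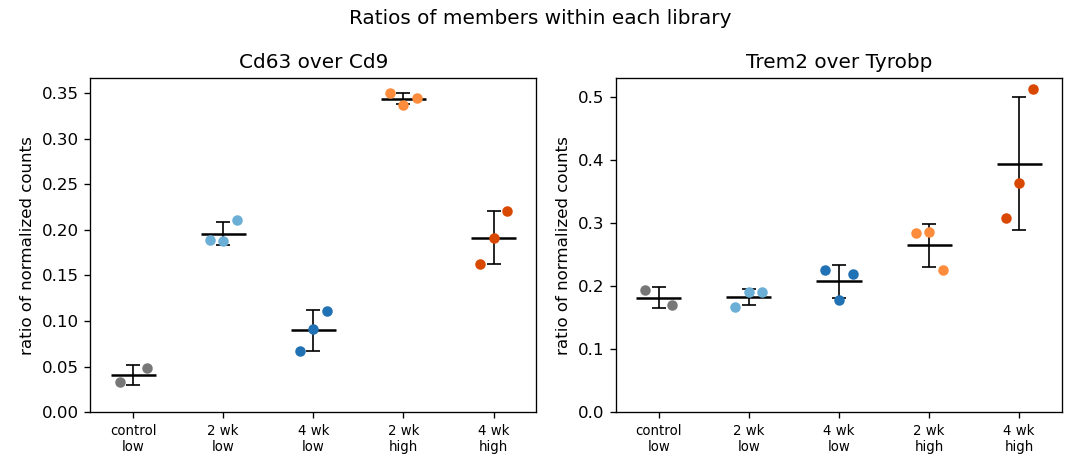
Ratio of normalized counts of Cd63 over Cd9 (left) and of Trem2 over Tyrobp (right) in each library, with group mean and SD; both axes start at 0. The 2-week MHCII-high libraries have the highest Cd63 over Cd9 ratio (0.337 to 0.35), and the 4-week MHCII-high libraries the highest Trem2 over Tyrobp ratio (0.308 to 0.511).

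What bleomycin changes in MHCII-low cells was asked by setting these cells at each time against the controls. At 2 weeks Cd63 rose 6.34-fold, Gpnmb 2.18-fold and Tyrobp 1.65-fold. Trem2 (1.66-fold), Lgals3 (1.58-fold) and Cd9 (1.31-fold) had positive differences that did not pass the test. Thus 3 of 6 members passed, all higher, where 1.48% of the 17390 genes tested were called higher and 0.426% lower. In limma's moderated test the log2 fold change of Cd63 was 2.66 ± 0.24 (SE; adjusted p 4.55e-07), of Gpnmb 1.12 ± 0.18 (adjusted p 0.00109) and of Tyrobp 0.72 ± 0.18 (adjusted p 0.0441). For Trem2 it was 0.73 ± 0.23 (adjusted p 0.118), for Lgals3 0.66 ± 0.22 (adjusted p 0.175) and for Cd9 0.39 ± 0.18 (adjusted p 0.362). The Tyrobp call was lost on removal of a control or of 2-week replicate 1 or 3 (limma adjusted p reaching 0.3), and that of Gpnmb ended when only these 2 groups were fitted (adjusted p 0.15). The call of Cd63 held in all 5 removals of a library and all 13 other settings.

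At 4 weeks Cd63 was still 2.62-fold above controls, with a log2 fold change of 1.39 ± 0.24 (limma adjusted p 0.0287). It was 1 of 8 genes in the whole table to pass: 0.0345% of genes tested were called higher and 0.0115% lower. The other members had log2 fold changes of 0.61 (Trem2), 0.54 (Lgals3), 0.42 (Tyrobp), 0.36 (Gpnmb) and 0.27 (Cd9), with limma adjusted p from 0.682 to 0.899. The Cd63 call ended in 4 of 5 removals of a library (a control, or 4-week replicate 2 or 3, with adjusted p reaching 0.35) and in edgeR (adjusted p 0.055), and held in DESeq2. Both comparisons share the control libraries.

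Among the other genes of the pathway, fixed lists were read in the same comparisons. Of 17 other lipid-associated macrophage genes, 7 passed as higher and 1 as lower in 2-week MHCII-low cells (median log2 fold change 0.61, against -0.09 over all genes). Spp1 (osteopontin; 3.73, limma adjusted p 6.38e-09), Mmp12 (macrophage elastase; 3.18, adjusted p 2.28e-06) and Cd36 (-1.33, adjusted p 0.00619) had the smallest p-values. Cd36 is a fatty acid and lipoprotein receptor. Its level was 14250 ± 3268 normalized counts in controls (SD, n = 2) and 5863 ± 1951 at 2 weeks (n = 3). The other increases were the lysosomal proteases Ctsb, Ctsd and Ctsl, the protease inhibitor Cstb and the lysosomal protein Cd68, named after their values were seen. At 4 weeks none of the 17 passed by limma, Mmp12 having the smallest p (1.39, adjusted p 0.195).

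The remaining lists, from TREM2 signalling genes to transcription factors of lysosomal genes, were read next. Of 12 signalling genes, Cd33, which encodes a sialic acid-binding receptor, passed at 2 weeks (0.95 ± 0.21, limma adjusted p 0.0155). Inpp5d (0.47, adjusted p 0.241) and Pik3r1 (-0.50, adjusted p 0.29) came next and did not pass. Syk, the kinase that TYROBP recruits, named for that role after its value was seen, had 0.16 ± 0.16. Of 9 other DAP12-coupled receptors and DAP10, Clec5a passed (1.38, adjusted p 0.0424). Of 4 ligands and sheddases, Apoe passed (5.35, limma adjusted p 0.00024) while Clu (0.59), Adam10 (0.13) and Adam17 (0.41) did not. Apoe read only 2.6 and 44.4 normalized counts in the 2 controls, so the size of its change is uncertain. Of the 10 other tetraspanins 0 passed, by limma at this time, with Cd82 nearest (0.84, adjusted p 0.0814). Lgals3bp was called among 5 other galectin genes (0.80, adjusted p 0.0424), and Lgals9 (0.86), Lgals1 (0.84), Lgals8 (-0.07) and Lgals4 (-1.18) were not. Of the 4 MiT/TFE factors, which drive lysosomal genes, Tfec passed (0.71 ± 0.16, adjusted p 0.0215), and Mitf (0.06), Tfeb (0.08) and Tfe3 (0.07) did not.

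Beside these results, the mitochondrial rRNA share was lower in MHCII-low bleomycin libraries than in controls, with 1 exception: 3.12% to 18.3% in 5 of them and 23.1% in 4-week replicate 2. In the 2-week group all 6 members were lowest in the library with the highest share (replicate 2), and in the 4-week group 5 of 6 were. Counted the same way, controls (2 libraries) had 3 of 6. The MHCII-high groups had 1 of 6 (2 weeks) and 3 of 6 (4 weeks). How many of all genes were lowest in these libraries is not given here. With the mitochondrial rRNA share as a covariate the 2-week log2 fold change of Tyrobp was 0.56 (limma adjusted p 0.24). The 4-week change of Cd63 was then 1.32 (adjusted p 0.15). The 2-week calls of Cd63 and Gpnmb held. Of the 5 sort markers, H2-Aa, H2-Ab1 and Cd74 passed by limma as higher than in controls at 2 weeks, and H2-Ab1 at 4 weeks. Of 11 monocyte-derived or interstitial macrophage markers, 5 passed as higher at 2 weeks. Their summed level was 117888.8 to 132094.2 normalized counts in controls and 132004.7 to 177933.4 in 2-week MHCII-low cells, with none of the list at 0 throughout either group. Of 8 epithelial markers Sftpc, a surfactant protein gene, passed as higher at 2 weeks (3.47, limma adjusted p 0.00168), and none did at 4 weeks. The part of these markers in the result was not tested.

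**Figure D3:**
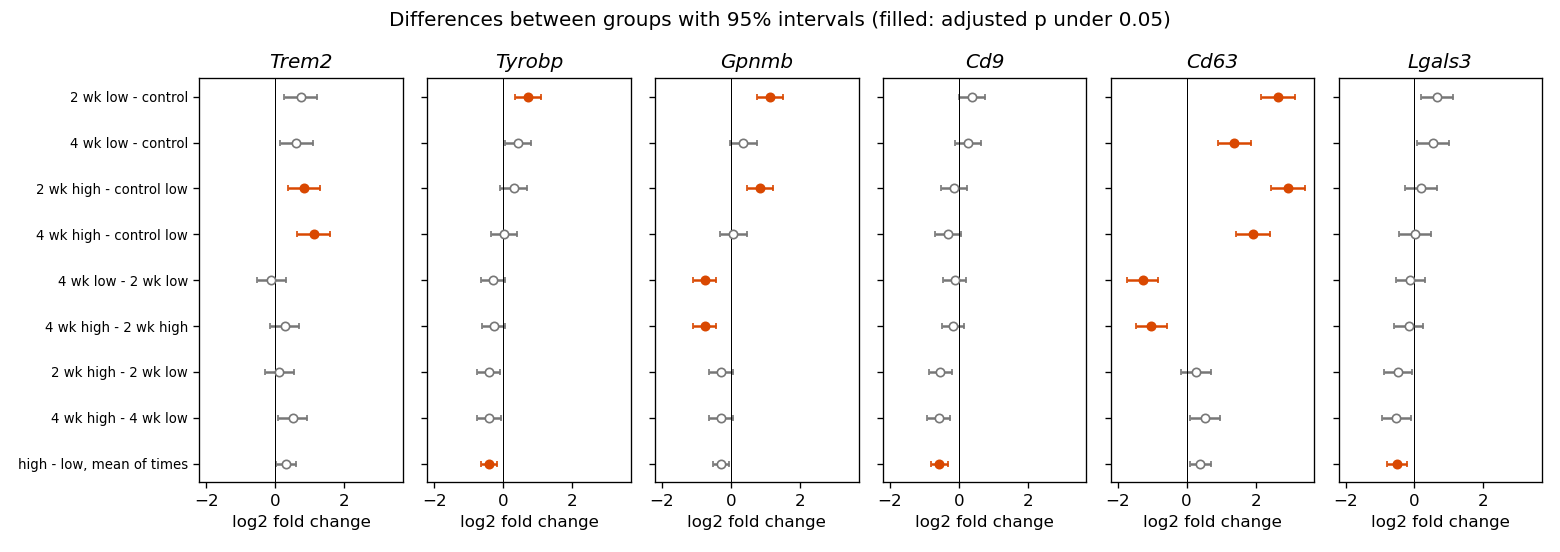
Log2 fold changes (horizontal axes) of each member in 9 comparisons with 95% intervals from limma; filled points passed an adjusted p of 0.05. Cd63 lies right of 0 in all 4 comparisons with controls and left of 0 in both 4-week against 2-week comparisons, and Cd9 lies left of 0 in the high against low comparisons.

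MHCII-high cells after bleomycin were next set against the MHCII-low controls, with treatment and MHCII level combined. At 2 weeks Cd63 was 7.66-fold, Gpnmb 1.79-fold and Trem2 1.79-fold above the controls, and all 3 passed. Tyrobp (1.23-fold), Lgals3 (1.14-fold) and Cd9 (0.902-fold) did not. Over all genes 3.56% were called higher and 1.08% lower. The log2 fold change was 2.94 ± 0.24 for Cd63 (limma adjusted p 3.05e-08), 0.84 ± 0.18 for Gpnmb (adjusted p 0.00713) and 0.84 ± 0.23 for Trem2 (adjusted p 0.033). The Trem2 call ended in each of the 5 removals of a library (adjusted p up to 0.32) and in edgeR (adjusted p 0.062). That of Gpnmb ended without control replicate 1 (adjusted p 0.13) or MHCII-high replicate 1 (adjusted p 0.057).

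At 4 weeks Cd63 was 3.77-fold and Trem2 2.16-fold above controls, while Gpnmb was at 1.05-fold. So 2 of 6 members passed, both higher, beside 1.76% of all genes called higher and 0.391% lower. Cd63 had a log2 fold change of 1.92 ± 0.24 (limma adjusted p 3.06e-05) and Trem2 of 1.11 ± 0.23 (adjusted p 0.0075). The interval of Gpnmb was -0.31 to 0.45, that of Tyrobp -0.36 to 0.41, that of Lgals3 -0.45 to 0.48 and that of Cd9 -0.69 to 0.06. Without replicate 3 of the 4-week MHCII-high cells, the library in which Trem2 read 5485.6, the Trem2 change was 0.87 (adjusted p 0.032). Without control replicate 1 or 3 its call ended (adjusted p up to 0.15).

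Cell markers moved with both comparisons. Of 11 monocyte-derived or interstitial macrophage markers 8 passed as higher at 2 weeks and 7 at 4 weeks, with sums of 136297.7 to 152106.2 and 127475.5 to 141866.2 normalized counts, against 117888.8 to 132094.2 in controls. Of 12 resident alveolar macrophage markers 7 and 4 passed as lower, with sums of 293427.8 to 389374.5 and 325596.1 to 405492.5 against 358737.1 to 399159 in controls. Of 8 dendritic cell markers 3 passed as higher at each time (Flt3, Ccr7 and Fscn1). Of 8 epithelial markers, Sftpc and Sftpa1 passed as higher and Scgb1a1 as lower at 2 weeks, and Sftpc as higher at 4 weeks (5.50 and 5.12 at the 2 times). Their part in the result was not tested.

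Of the 17 other lipid-associated macrophage genes, 5 passed as higher and 1 as lower in 2-week MHCII-high cells against controls, and 2 and 1 at 4 weeks. Mmp12 (5.34 and 4.21), Spp1 (3.88 and 1.85) and, at 2 weeks, Ctsb (1.49; limma adjusted p 8.2e-05) led them. Cd36 was the gene called lower at both times (-1.71 and -1.16). Apoe passed at both times (8.83 and 7.38), from a mean of 23.5 normalized counts in controls (2.6 and 44.4), so the size of these changes is uncertain. Clu (4.30 and 1.26), Adam10 (0.40 and -0.02) and Adam17 (0.17 and -0.25) did not. Of the 12 signalling genes, Inpp5d (0.71, adjusted p 0.0188), a lipid phosphatase that limits DAP12 signalling, and Cd33 (0.80, adjusted p 0.0282) passed at 2 weeks. No signalling gene passed by limma at 4 weeks. Tfec passed at 4 weeks (0.67, adjusted p 0.0278) but not at 2 weeks (0.32). Clec5a passed at 2 weeks (1.69, adjusted p 0.00442), as did Lgals9 (0.90, adjusted p 0.0255) and, at 32 normalized counts in controls and 187 after bleomycin, Tspan3 (3.21, adjusted p 0.0413).

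The change between 2 and 4 weeks was compared within each MHCII fraction, in libraries the 2 fractions do not share. The labels do not say whether same-numbered libraries of the 2 fractions came from the same mice. The 2 results may thus not be independent. In MHCII-low cells Cd63 fell to 0.413 and Gpnmb to 0.59 of the 2-week level, and in MHCII-high cells to 0.492 and 0.588. The other 4 members did not pass in either fraction. In each fraction 2 of 6 members passed, both lower. Over all genes, 0.748% were called lower and 0.109% higher in MHCII-low cells, and 0.759% and 0.311% in MHCII-high cells. In MHCII-low cells the log2 fold change was -1.28 ± 0.21 for Cd63 (limma adjusted p 0.00196) and -0.76 ± 0.16 for Gpnmb (adjusted p 0.0236). In MHCII-high cells it was -1.02 ± 0.21 for Cd63 (adjusted p 0.0208) and -0.77 ± 0.16 for Gpnmb (adjusted p 0.0248). Trem2 had -0.12 (interval -0.54 to 0.30) in MHCII-low and 0.27 (interval -0.15 to 0.69) in MHCII-high cells. The Cd63 call in MHCII-low cells held in all 6 removals and ended when only the groups compared were fitted (limma adjusted p 0.16). The other 3 calls each ended in 4 of 6 removals: Gpnmb in MHCII-low cells without 2-week replicate 1 or 3 or 4-week replicate 1 or 2 (adjusted p up to 0.14), Gpnmb in MHCII-high cells without 2-week or 4-week replicate 1 or 3 (up to 0.14), and Cd63 in MHCII-high cells without any 2-week replicate or 4-week replicate 1 (up to 0.082).

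Of the 17 other lipid-associated macrophage genes, 3 passed as lower in each fraction and 0 as higher. They were Spp1 (-3.06), Mmp12 (-1.79) and Ctsl (-1.56) in MHCII-low cells and Spp1 (-2.03), Fabp5 (-1.47) and Ctsl (-1.23) in MHCII-high cells. Ctsl encodes cathepsin L, a lysosomal protease, and Fabp5 a fatty acid-binding protein. Mmp12 in MHCII-high cells had -1.14 (limma adjusted p 0.0575). Cd33 (-0.85, adjusted p 0.0279), Clec5a (-1.35, adjusted p 0.0399) and the sheddase Adam17 (-0.66, adjusted p 0.0437) were called in MHCII-low cells. In MHCII-high cells they had -0.36, -0.98 and -0.42 and did not pass. Beside this, the summed level of the 11 monocyte-derived or interstitial macrophage markers was 119385.1 to 143482.6 normalized counts in 4-week and 132004.7 to 177933.4 in 2-week MHCII-low cells, and 127475.5 to 141866.2 in 4-week and 136297.7 to 152106.2 in 2-week MHCII-high cells. None of the list was at 0 throughout a group. Of 12 resident alveolar macrophage markers, Fabp1 and Ear1 passed as higher in both fractions and Car4 as lower in MHCII-low cells. The part of these markers in the result was not tested.

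**Figure D4:**
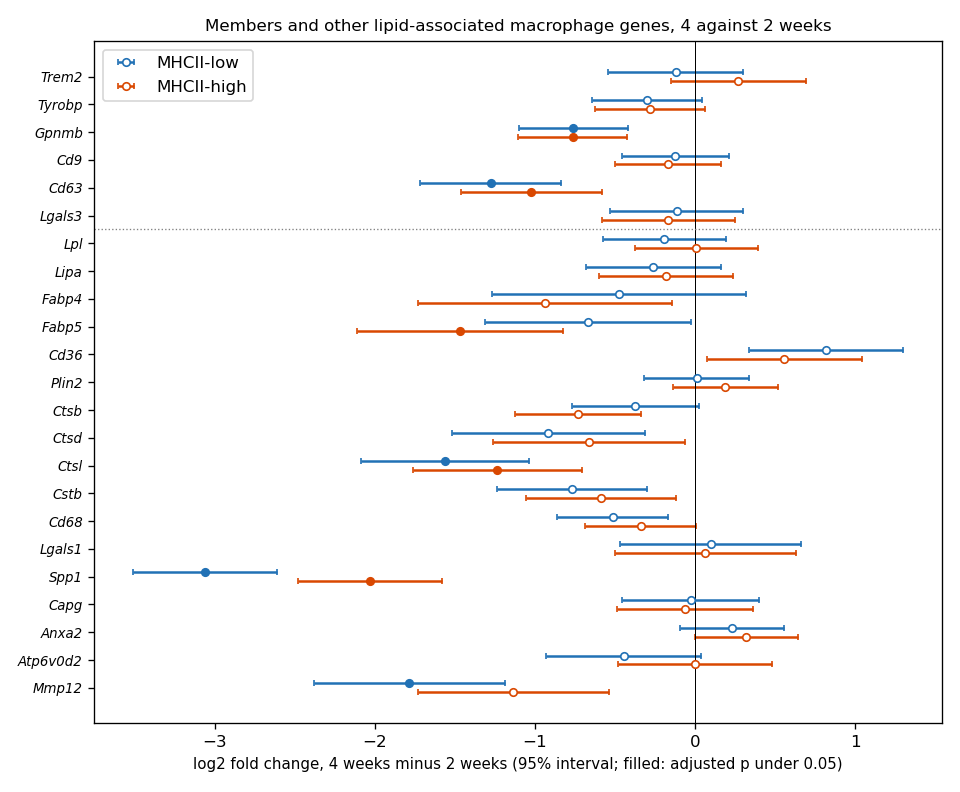
Log2 fold change at 4 weeks against 2 weeks (horizontal axis, 95% interval) of the 6 members (above the dotted line) and 17 other lipid-associated macrophage genes in MHCII-low and MHCII-high cells; filled points passed an adjusted p of 0.05. Cd63 and Gpnmb are the members called lower in both fractions, and Spp1 has the lowest value of all genes drawn (-3.06 and -2.03).

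MHCII-high and MHCII-low cells of the same time were compared last. At 2 weeks 0 of 6 members passed by limma, where 2.29% of all genes were called higher and 0.581% lower in MHCII-high cells. At 4 weeks 0 of 6 passed, beside 1.96% and 0.535%. At an unadjusted level, p was 0.00292 and 0.00152 for Cd9, and DESeq2 called Cd9 at both times (adjusted p 0.015 and 0.011). Its log2 fold changes were -0.54 ± 0.16 at 2 weeks (limma adjusted p 0.0749) and -0.58 ± 0.16 at 4 weeks (adjusted p 0.0571).

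Over the mean of both times 3 members passed, all lower in MHCII-high cells, where 2.21% of all genes were called lower and 5.0% higher. Cd9 was at 0.677, Lgals3 at 0.708 and Tyrobp at 0.752 of the MHCII-low level. The log2 fold change was -0.56 ± 0.11 for Cd9 (limma adjusted p 0.00302), -0.50 ± 0.14 for Lgals3 (adjusted p 0.0339) and -0.41 ± 0.12 for Tyrobp (adjusted p 0.034). Trem2 (0.30 ± 0.14, adjusted p 0.222) and Cd63 (0.40 ± 0.15, adjusted p 0.115) had positive differences and Gpnmb a negative one (-0.29 ± 0.12, adjusted p 0.147), and these did not pass. Cd9 held in all 12 removals of a library. The Lgals3 call ended in 8 of them: without replicate 1 of any of the 4 groups, replicate 2 of either MHCII-high group or replicate 3 of either MHCII-low group (adjusted p up to 0.1). The Tyrobp call ended in 7, for the same libraries except 4-week MHCII-high replicate 1 (up to 0.098).

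The mitochondrial rRNA share moved with this comparison, at 3.12% to 23.1% in MHCII-low and 8.12% to 28.99% in MHCII-high libraries after bleomycin. With the share as a covariate the log2 fold changes were -0.40 for Cd9 (limma adjusted p 0.12), -0.36 for Lgals3 (adjusted p 0.34) and -0.25 for Tyrobp (adjusted p 0.4), so all 3 calls ended. Cell markers moved with it too. Of 12 resident alveolar macrophage markers 10 passed as lower in MHCII-high cells, with sums of 293427.8 to 405492.5 normalized counts against 399770.3 to 639968.2 in MHCII-low cells after bleomycin. Of 11 monocyte-derived or interstitial macrophage markers 7 passed as higher, and of 8 dendritic cell markers 5 did. Of 8 epithelial markers 2 passed as higher (Sftpc and Sftpa1) and 1 as lower (Scgb1a1), and of 8 tested B and T lymphocyte markers 5 as higher and 1 as lower. Their part in the result was not tested.

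Of the 17 other lipid-associated macrophage genes, 2 passed as higher and 2 as lower over the mean of both times. Mmp12 (2.49, limma adjusted p 3.33e-08), Spp1 (0.67, adjusted p 0.00844) and Plin2 (-0.47, adjusted p 0.0113) had the smallest p-values, and the membrane-binding protein gene Anxa2 was the other (-0.43, adjusted p 0.0193; named after its value was seen). Plin2 coats lipid droplets. Of the ligands and sheddases Apoe passed (3.58), and Clu (1.48), Adam10 (0.23) and Adam17 (-0.12) did not. By limma 0 of 12 signalling genes passed, and 0 of the 9 genes listed as other DAP12-coupled receptors and DAP10. The tetraspanin Cd81 was lower (-0.37, adjusted p 0.0495), like Cd9, whose close relative and partner it is. Tspan33 was called higher, but all 6 MHCII-low bleomycin libraries were at 0 and no MHCII-high library exceeded 45.8 normalized counts, so no fold is given. Of the MiT/TFE factors, Mitf had 0.39 (adjusted p 0.0774), Tfec -0.20, Tfeb 0.02 and Tfe3 0.02.

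Whether the high against low difference changed between 2 and 4 weeks was tested directly. By limma 0.0% of genes passed, no member among them, with 987 genes at an unadjusted p under 0.05, 0 called by edgeR and 56 by DESeq2. The differences of differences were 0.39 (interval -0.20 to 0.99) for Trem2, 0.25 (-0.37 to 0.88) for Cd63 and between -0.05 and 0.02 for the other 4.

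The genes whose pattern was most like each member were sought among 9994 tested genes with a mean of at least 100 normalized counts. Likeness was the root mean square difference between centred log2 profiles over the 14 libraries. For Tyrobp the nearest were Ctsz (0.088), Fcer1g (0.099) and Ly6e (0.136); Fcer1g encodes the other ITAM adaptor of macrophage receptors. For Cd9 they were Tmbim6 (0.124), Fuca1 (0.130) and Shisa5 (0.133), and for Lgals3 Tnfrsf1a (0.114), Pld4 (0.133) and Lrp10 (0.134). Trem2 was nearest to F11r (0.180), Dlgap4 (0.182) and Scpep1 (0.192), and Gpnmb to Cd14 (0.182), Ptgfrn (0.188) and Gm15448 (0.191). Cd63 was nearest to Nrp2 (0.252), Slc2a1 (0.284) and Rnf128 (0.298). Nrp2, a semaphorin co-receptor, averaged 4623 normalized counts in controls, 22251 in 2-week and 8326 in 4-week MHCII-low cells. Among the members themselves Cd9 and Lgals3 were closest (0.174), followed by Cd9 and Tyrobp (0.182). Trem2 and its adaptor Tyrobp stood at 0.452, and Cd63 and Cd9 farthest apart at 1.019. The profiles were not scaled, so this distance also grows with the size of the changes. The log2 range over the 14 libraries was 3.228 for Cd63 and 1.003 for Cd9.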

How the data were processed

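RNA-seq of 14 libraries was analysed. Per the file headers, the deposited values are normalized counts, a signal the authors made from gene counts. The submitters' processing notes name STAR, DESeq2 and mm10 without versions; how reads were assigned to genes, and with which annotation, is not given in the sources used here. Each library's values were multiples of 1 step, and 99.97% to 100% of them lay within 0.05, the rounding, of a whole number of reads. GC percent and exon length are the authors' deposited columns. Exon length served for levels per kb.

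A gene was tested if 2 or more libraries reached 10 normalized counts. limma 3.58.1 (R 4.3.3) was fitted to log2(value + 1) of all 5 groups together with an intensity-dependent prior, so fold changes understate those of low genes. P-values were adjusted by Benjamini-Hochberg over 17390 genes in each of 10 comparisons, with a threshold of 0.05. The procedure was tested on simulated data. Alternatives included edgeR 4.0.16 and DESeq2 1.42.0 on the recovered reads, other scalings and filters, a GC correction, a covariate and the removal of each library. No replicates were near-copies (mean chi-square per gene at least 70.3).

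Named genes were the 6 members, up to 3 genes per list with the smallest p, every gene of lists of 5 or fewer, and the 3 genes most like each member; others named are marked, are called genes of a list, are sort or cell markers, or are given beside their call in another comparison. The members and lists were chosen with earlier results of these data known.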

Additional observations from a re-analysis of the deposited data

Results flagged for a closer look

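The change of Cd63 and of Gpnmb against controls differed between 2 and 4 weeks by a direct test, in both MHCII fractions. With the controls shared, these are the 4-week against 2-week differences already given above. In MHCII-low cells the difference, 4 weeks minus 2 weeks, was -1.28 for Cd63 and -0.76 for Gpnmb on the log2 scale (limma adjusted p 0.00196 and 0.0236). In MHCII-high cells, against the MHCII-low controls, it was -1.02 for Cd63 and -0.77 for Gpnmb (adjusted p 0.0208 and 0.0248). Of these 4 differences, that of Cd63 in MHCII-low cells held without any 1 library. The other 3 each lost their call in 4 of 6 removals. All 4 lost their call when only the groups compared were fitted (limma adjusted p 0.16 for Cd63 in MHCII-low cells).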

How the results depend on the processing

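Over 1212 member values under alternatives, no called value changed sign; 75 calls were lost and 23 gained. The 52 sign changes were among values called in neither setting, with a size of at most 0.33 after the change. The number of members called in the 2-week high against low comparison was 0, and 1 in DESeq2, 1 in voom and 4 after removal of the GC trend. At 4 weeks it was 0, and 1 with a CPM filter of 5, with TMM and limma, in edgeR, in DESeq2 and in voom. Over the mean of both times it was 3, and 1 with no filter and 0 with the mitochondrial rRNA covariate. Against controls, 2-week MHCII-low cells had 3, and 6 after removal of the GC trend and 1 when only the groups compared were fitted. The 4-week MHCII-low cells had 1, and 0 in edgeR, in voom, with the covariate and with only the groups compared. The 2-week MHCII-high cells had 3, and 1 with library totals, and the 4-week MHCII-high cells 2, and 1 with only the groups compared. Between times, MHCII-low cells had 2, and 1 with no filter, 1 with library totals and 0 with only the groups compared. MHCII-high cells had 2, and 0 with no filter, library totals, the GC trend removed or only the groups compared. The cause of these differences was not tested. Removing 1 library gave 0 to 1 members in each high against low comparison of 1 time, 1 to 3 over both times, 0 to 1 for 4-week MHCII-low cells against controls, 1 to 2 for 4-week MHCII-high cells, 1 to 2 for 2-week MHCII-high cells, 2 to 3 for 2-week MHCII-low cells, 1 to 2 between times in MHCII-low and 0 to 2 in MHCII-high cells.

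Same-numbered MHCII-high and MHCII-low libraries of a week had correlations of 0.107, 0.068 and 0.025 at 2 weeks and 0.009, 0.034 and 0.015 at 4 weeks. Those with different numbers had -0.124 to 0.077 at 2 weeks and -0.032 to 0.017 at 4 weeks. The numbers were not taken as pairs, but these values do not decide whether the libraries share mice. With the number as a replicate block, 1 member (Cd9) was called at 2 weeks and 1 at 4 weeks between high and low cells, and 1 at 4 weeks with the block within week. Over all genes, calls ranged over the settings from 205 to 1689 (main 499) and 56 to 898 (434) between high and low cells at 2 and 4 weeks and 500 to 2122 (1254) over both. Against controls they ranged from 36 to 849 (332) and 0 to 77 (8) in MHCII-low and 377 to 1208 (806) and 44 to 751 (374) in MHCII-high cells, and between times from 15 to 322 (149) and 0 to 638 (186). The share called higher over both times was 69.4%, and 46.5% with library totals, 54.4% with TMM and 36.3% with the GC trend removed. It was 79.8% at 2 weeks between high and low cells, and 69.0% with library totals and 22.5% with the GC trend removed. With the GC trend removed it went from 77.7% to 93.5% and 75.0% to 92.9% in MHCII-low cells against controls, 81.8% to 93.1% in 4-week MHCII-high cells and 29.0% to 74.6% between times in MHCII-high cells. With library totals it went from 76.8% to 66.2% in 2-week MHCII-high cells and 29.0% to 46.5% between times, and from 75.0% to 100.0% in 4-week MHCII-low cells. On recovered reads edgeR called 2 genes in that comparison and DESeq2 77. Library totals moved the median log2 change of all genes most in 2-week MHCII-high cells against controls, from -0.03 to -0.19.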
